A study of Mus musculus with 3 samples.

Results

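The Snrpn domain of mouse chromosome 7 and the GABA receptor genes beside it were described here from single-cell open-chromatin counts of kidney. The 8 genes, Snrpn, Snhg14, Ube3a, Ndn, Magel2, Mkrn3, Gabra5 and Gabrg3, were taken from a fixed list out of 49943 annotated genes. They were chosen by the old against young difference in accessibility of proximal tubule cells, in which some of them stood out. For these genes that contrast is therefore given below as values with SE and no p-value. Every SE here was worked back from edgeR's quasi-likelihood fit, as the log2 difference over the square root of its F statistic. The single young library adds no spread of its own to the SE of an age contrast. Regions of a gene are those that overlap its body or the 2 kb on either side. Kidneys came from mice with a point mutation in the mitochondrial gene trnE, and open chromatin was measured with an assay that also keeps the mitochondria (mtscATAC-seq). Old replicate 1 was 75 weeks old with a mutation load of 75%, old replicate 2 was 75 weeks old with a load of 80%, and the young mouse was 3 weeks old with a load of 80%. The loads are as labelled, and the number in the file name of old replicate 1 differs from its labelled load. All 3 carried the mutation, and no unmutated sample was used here. The sources used here give no sex. Whether the old libraries are of different mice is not stated, so p-values reflect the spread of these libraries alone, which may be technical. The young group is 1 library.

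Imprinted genes are expressed from the chromosome of one parent. In this domain an imprinting centre at the Snrpn start, methylated on the maternal chromosome, keeps Snrpn, the long transcript Snhg14, Ndn, Magel2 and Mkrn3 active on the paternal chromosome, and in neurons Snhg14 silences the paternal copy of Ube3a. Loss of the paternal genes underlies Prader-Willi syndrome and loss of maternal Ube3a underlies Angelman syndrome, so the domain is best known in brain. The counts used here are not split by parental chromosome.

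The promoters of the paternally expressed genes and of Ube3a are printed because they are the annotated starts that the open regions are compared with. They are RefSeq sequences of build GRCm38.p6, 5′ to 3′ in the direction of the gene, from 250 bases before to 50 bases after the start, and capitals mark each CpG. Their positions are chr7:60005150-60005449 (minus strand) for Snrpn, chr7:60450128-60450427 (minus) for the far start that Snrpn shares with Snhg14, chr7:62348027-62348326 (plus) for Ndn, chr7:62376729-62377028 (plus) for Magel2, chr7:62420104-62420403 (minus) for Mkrn3 and chr7:59228500-59228799 (plus) for Ube3a.
Snrpn: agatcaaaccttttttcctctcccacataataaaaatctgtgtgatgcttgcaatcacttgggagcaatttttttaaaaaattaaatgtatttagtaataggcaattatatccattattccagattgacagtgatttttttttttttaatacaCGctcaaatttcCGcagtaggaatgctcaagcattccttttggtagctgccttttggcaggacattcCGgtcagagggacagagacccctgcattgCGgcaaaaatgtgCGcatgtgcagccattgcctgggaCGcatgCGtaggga
Snrpn and Snhg14 far start: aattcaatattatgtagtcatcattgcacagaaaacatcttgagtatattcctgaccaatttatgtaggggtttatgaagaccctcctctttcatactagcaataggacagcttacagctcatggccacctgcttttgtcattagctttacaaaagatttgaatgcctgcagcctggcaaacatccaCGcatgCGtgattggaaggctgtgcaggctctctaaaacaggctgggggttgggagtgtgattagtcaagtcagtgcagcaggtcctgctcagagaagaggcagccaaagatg
Ndn: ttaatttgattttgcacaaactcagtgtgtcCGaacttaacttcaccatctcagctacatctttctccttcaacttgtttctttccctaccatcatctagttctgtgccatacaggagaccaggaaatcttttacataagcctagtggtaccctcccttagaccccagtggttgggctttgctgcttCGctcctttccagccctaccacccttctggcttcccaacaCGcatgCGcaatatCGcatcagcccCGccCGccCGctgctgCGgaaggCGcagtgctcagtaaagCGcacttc
Magel2: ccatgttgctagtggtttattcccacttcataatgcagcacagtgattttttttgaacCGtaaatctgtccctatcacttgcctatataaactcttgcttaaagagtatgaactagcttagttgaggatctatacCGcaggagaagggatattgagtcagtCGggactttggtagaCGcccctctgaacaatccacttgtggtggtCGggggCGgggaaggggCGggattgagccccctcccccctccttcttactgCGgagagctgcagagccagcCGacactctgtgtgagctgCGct
Mkrn3: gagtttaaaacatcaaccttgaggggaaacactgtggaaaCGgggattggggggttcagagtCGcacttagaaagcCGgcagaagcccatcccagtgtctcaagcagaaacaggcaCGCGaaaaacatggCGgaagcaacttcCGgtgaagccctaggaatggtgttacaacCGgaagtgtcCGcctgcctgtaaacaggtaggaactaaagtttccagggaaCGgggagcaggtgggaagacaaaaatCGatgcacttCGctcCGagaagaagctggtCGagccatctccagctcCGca
Ube3a: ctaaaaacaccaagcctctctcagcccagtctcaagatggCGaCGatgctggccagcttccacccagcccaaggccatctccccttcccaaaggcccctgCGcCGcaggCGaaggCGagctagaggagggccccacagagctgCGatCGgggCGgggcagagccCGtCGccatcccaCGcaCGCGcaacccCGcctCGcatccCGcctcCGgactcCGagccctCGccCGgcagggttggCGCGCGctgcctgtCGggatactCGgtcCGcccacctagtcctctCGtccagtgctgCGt

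Ube3a, which encodes a ubiquitin ligase, had the promoter richest in CpG of these genes, with 29. Mkrn3, a ring finger protein of the makorin family, had 15, Ndn (necdin) 11, Magel2 (a MAGE family protein that works with ubiquitin ligases) 10, and Snrpn, which encodes a protein of the splicing machinery, 7. The median over 32851 promoters was also 7. The 3 other annotated starts of Snrpn, all upstream, had 2 to 4. The upstream starts resembled each other: the longest run of identical bases in any pair of them was 49 to 62 bases long, against 10 bases between any of them and the downstream start. All 4 Snrpn promoters and that of Ndn held the run CGCATGCG, which was looked for after the sequences had been read and occurs in 1.87% of all promoters. It reads the same on both strands. In Ndn its first base lay at -23 from the start, and in the Snrpn far start at -63. On either strand, the GC box GGGCGG (35.7% of all promoters) was matched in Ube3a, Ndn and Magel2 and in the Gabrg3 promoter, which is not printed, and the YY1 motif GCCATNTT (6.05%) in Ube3a and Mkrn3. The core of the NRF1 motif (4.60%) and the HNF1 motif (0.00913%) were matched in none of the promoters printed. A match describes the letters only.

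The libraries held 5656, 4302 and 4440 barcodes (old replicate 1, old replicate 2, young) and 96093221, 64729297 and 110871506 counts in peaks. Median counts per barcode were 16288.5, 13338.5 and 23319.5. Old replicate 1 stood apart: 61.6% of its cells were macrophage or dendritic-like and 23.2% T or NK-like, and 4.91% were proximal tubule-like, while old replicate 2 had 88.7% and the young library 83.6%. Proximal tubule-like cells therefore numbered 261, 3503 and 3322. Between pairs of libraries 28 to 39 barcodes were shared. The 13 proximal tubule markers with a common region (of 14 listed) summed to 1023, 1141 and 1203 CPM (counts per 1000000 counts) in the proximal tubule-like class and to between 114 and 257 CPM in the other classes. The T or NK-like class was named on all merged regions. In common regions its 5 measured markers (of 13) did not mark it, with 71.4 and 97.8 CPM in old replicate 1 and young T or NK-like cells against 129 to 133 CPM in proximal tubule-like cells.

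Because each library has its own peak list, the domain was first described by where peaks were called. Of 250005 merged regions, 65 touched the 8 genes, and 13 of those had a peak in every library (common regions, 72317 in all). A region without a peak in a library has no count there, which does not show that it was closed. Old replicate 2 alone called 21 of the 65 regions (32.3%, against 7.27% of all merged regions), and 20 more (30.8%, against 18.0%) were called in old replicate 2 and the young library. Old replicate 1 alone called 5 (7.69%, against 31.2%), the young library alone 5 (7.69%, against 7.95%), and both old libraries without the young one 1 (1.54%, against 2.44%). Of the regions called in old replicate 2, 60.0% also had a young peak, against 82.9% over the genome. In the other direction, 86.8% of the young regions had a peak in old replicate 2, against 79.5%. Both libraries are mostly proximal tubule-like, so these peak shares are not independent of the contrast that chose the genes.

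The genes shared these regions unequally. Snhg14, 1177441 bases long, held 26 regions and Snrpn 15, and all of the Snrpn regions lie inside Snhg14, so the values of these genes are not independent. Gabrg3, a GABA receptor subunit gene, held 18 regions, with 1, 16 and 10 called in old replicate 1, old replicate 2 and young. Gabra5, the gene of another subunit, held 11 (2, 11 and 7), of which 2 are common. Ube3a held 8 regions (6, 4 and 5), of which 3 are shared with Snhg14. Magel2 held 3 (1, 3 and 3), Mkrn3 1 common region, and Ndn 1 region with a young peak only. Ndn therefore has no comparison between libraries: its promoter region at chr7:62347953-62348794 had 89 counts (1.13 CPM) in young proximal tubule-like cells.

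Open regions lay at some starts and not at others. The regions at the Ube3a, Mkrn3 and downstream Snrpn starts had a peak in every library. The region at the Magel2 start (chr7:62376725-62377634) and that at the Gabrg3 start (chr7:57386803-57387586) had a peak in old replicate 2 and young. None of the 3 upstream Snrpn starts, the Snhg14 start that coincides with one of them, or the Gabra5 start of the promoter table lay in a region of any library. The annotated body of Gabra5 reaches further upstream, to base 57591016, which lies in a common region. The common regions of Snrpn are its start region (chr7:60004657-60005521) and 3 regions 239, 347 and 386 kb upstream of that start (chr7:60243870-60244786, chr7:60351933-60352871 and chr7:60390765-60391833). All 3 lie within the annotated bodies of Snrpn and Snhg14. Whether they are exonic or intronic was not analysed here.

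In proximal tubule-like cells, Snrpn, Snhg14, Gabra5 and Gabrg3 had higher values in both old libraries than in the young one, and Ube3a, which overlaps the far end of Snhg14, differed by less than its SE. Values are CPM, scaled to the counts in common regions of the class. Snrpn measured 38.8 CPM in old replicate 1 and 52.4 in old replicate 2, against 17.2 in the young library. Snhg14 measured 39.9, 57.8 and 19.3. The old libraries lay above the young one for both genes, and the log2 difference of old over young was 1.42 (SE 0.26) for Snrpn and 1.36 (SE 0.25) for Snhg14.

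**Figure D1:**
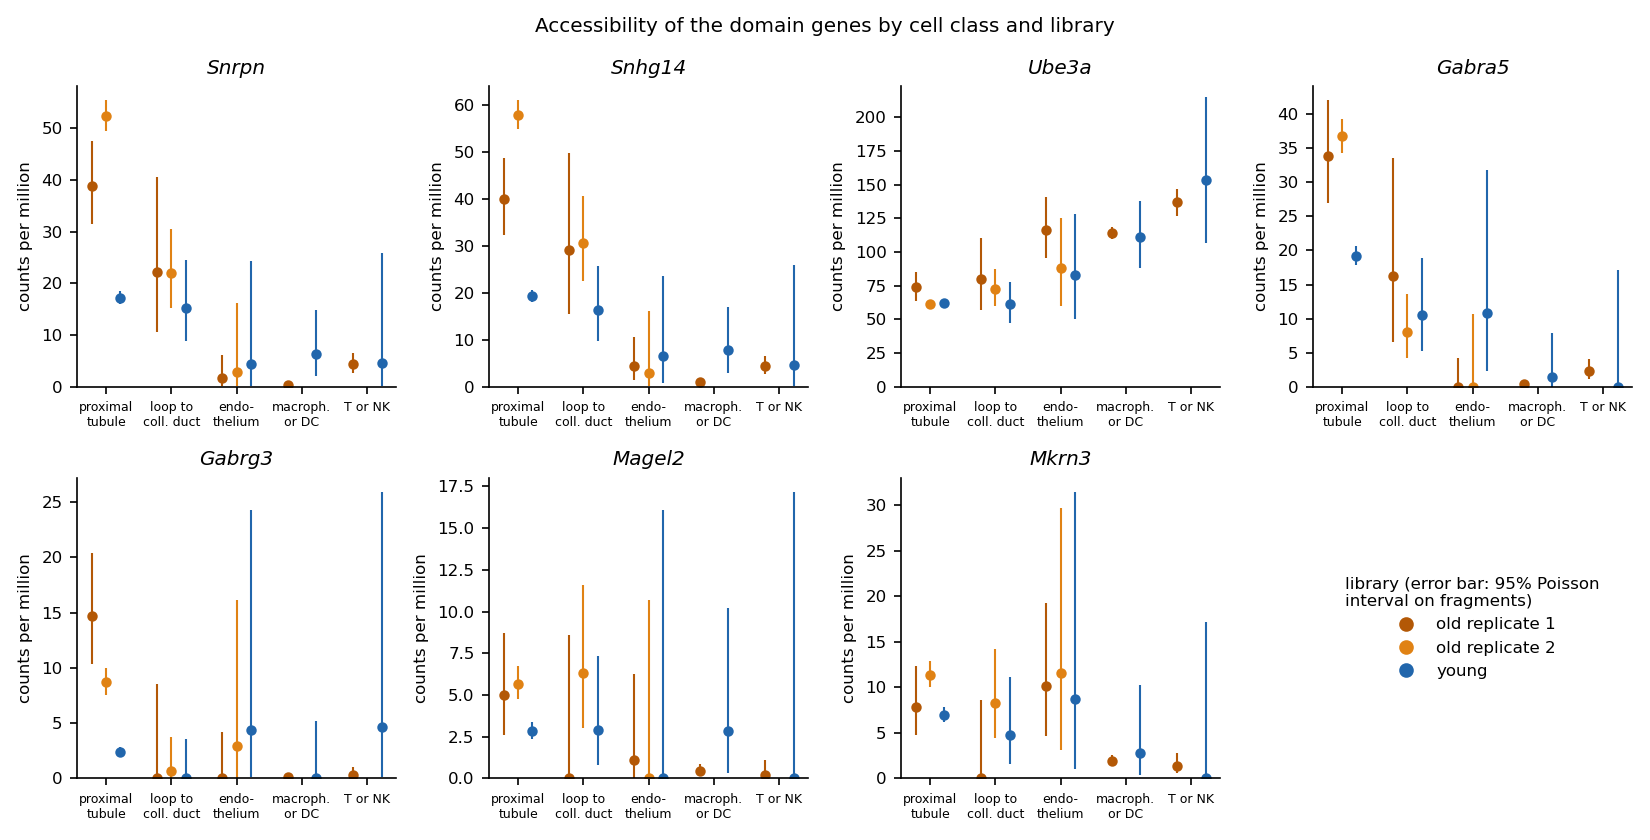
Open chromatin at 7 of the genes (CPM in common regions, vertical axis, one panel per gene) in each cell class (horizontal axis), one point per library with at least 30 cells. In proximal tubule-like cells the old libraries lie above the young one for Snrpn (38.8 and 52.4 against 17.2 CPM), and Ube3a is highest in T or NK-like cells.

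Among the receptor genes, Gabra5 measured 33.8, 36.7 and 19.2 CPM (old replicate 1, old replicate 2, young), with a log2 difference of 0.87 (SE 0.28). Gabrg3 measured 14.7, 8.73 and 2.34 CPM, a log2 difference of 2.28 (SE 0.59) from 71, 398 and 185 counts. Here the old libraries differed from each other as well, and both lay above the young one. Magel2 measured 4.98, 5.66 and 2.83 CPM (log2 0.91, SE 0.67), from 24, 258 and 224 counts, so its SE was nearly as large as the difference. Mkrn3 measured 7.89, 11.4 and 7.01 CPM (log2 0.48, SE 0.49), and Ube3a 73.7, 61.3 and 61.9 CPM (log2 0.10, SE 0.21). Old replicate 2 and the young library were within 1 CPM of each other for Ube3a.

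The old and young difference was not spread evenly over Snrpn. At 347 kb upstream, the region chr7:60351933-60352871 measured 10.6 and 14.9 CPM in the old libraries and 0.974 CPM in the young one, from 51, 680 and 77 counts. It was open in 9.20%, 9.11% and 1.08% of the proximal tubule-like cells, and in 2.60%, 2.77% and 0.155% after every cell was thinned to 2000 counts. The log2 difference was 3.69 (SE 0.52), the highest of the 13 common regions. At 386 kb the values were 10.6, 16.2 and 4.61 CPM (log2 1.53, SE 0.43), and at 239 kb they were 13.5, 15.5 and 8.0 CPM (log2 0.84, SE 0.39). In the start region, which holds the promoter printed for Snrpn, they were 4.15, 5.75 and 3.67 CPM (log2 0.42, SE 0.59), and the old replicate 1 value there rests on 20 counts. The start region thus held 10.7% and 11% of the Snrpn counts in the old libraries and 21.3% in the young one, while the region at 347 kb held 27.3%, 28.5% and 5.65%. Without that region Snrpn measured 28.2, 37.5 and 16.3 CPM, and the log2 ratio of the old mean to the young value fell from 1.40 to 1.01. The old libraries still lay above the young one. Leaving it out was chosen after the values had been seen.

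**Figure D2:**
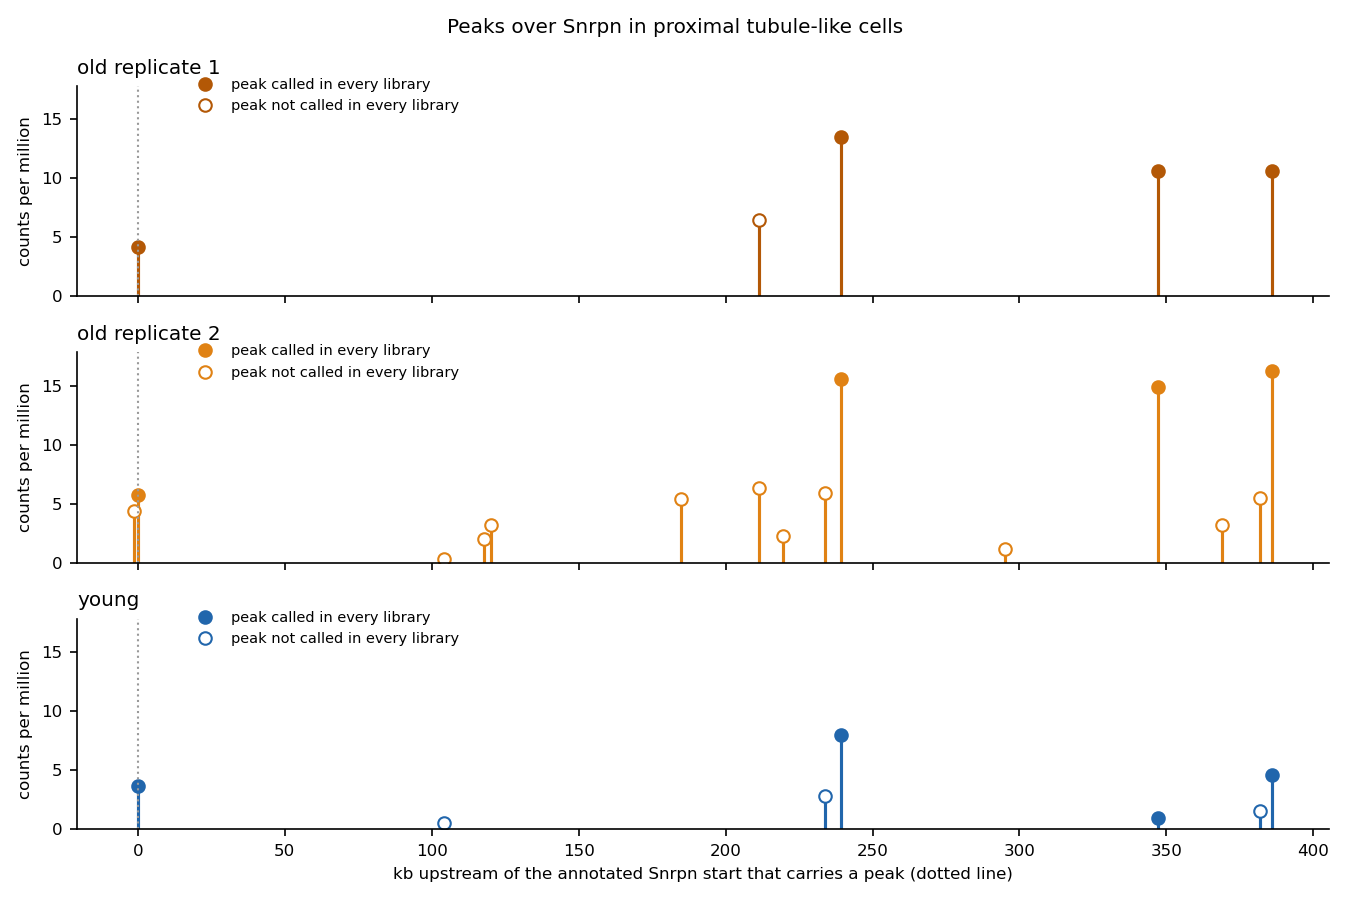
Open chromatin in every called Snrpn region (CPM in proximal tubule-like cells, vertical axis) by distance upstream of the Snrpn start in kb (horizontal axis), one panel per library, with filled points for the 4 common regions and open points for regions that some library did not call. At 347 kb the old libraries measured 10.6 and 14.9 CPM and the young library 0.974, and at the start 4.15, 5.75 and 3.67 CPM.

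Elsewhere in Snrpn, 1 region had a peak in old replicate 1 and old replicate 2 but none in young. It lay at chr7:60216093-60217048, with 6.44 and 6.30 CPM in proximal tubule-like cells. Old replicate 2 alone had a peak at chr7:60189506-60190373, with 5.35 CPM. In regions called in old replicate 2 and young, chr7:60238558-60239472 measured 5.93 and 2.80 CPM and chr7:60386561-60387579 5.49 and 1.53 CPM. An exception was chr7:60108747-60109670, with 0.307 and 0.519 CPM from 14 and 41 counts. The common region that belongs to Snhg14 alone, chr7:59769547-59770406, measured 1.04, 5.38 and 2.04 CPM (log2 0.73, SE 0.75), with old replicate 1 below the young library on 5 counts.

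The regions of the receptor genes, Ube3a, Magel2 and Mkrn3 were read one by one. The Gabrg3 region chr7:57357698-57358645 measured 14.7, 8.73 and 2.34 CPM. The common regions of Gabra5 lay at the upstream edge of its annotated body: chr7:57590461-57591500 measured 23.3, 23.9 and 10.9 CPM (log2 1.08, SE 0.36), and chr7:57591934-57592866 measured 10.6, 12.8 and 8.31 CPM (log2 0.47, SE 0.40). The Ube3a start region chr7:59228171-59229147, with the CpG-rich promoter printed above, measured 71.4, 57.1 and 58.2 CPM (log2 0.12, SE 0.39). The Ube3a regions chr7:59231735-59232660 and chr7:59245265-59246172 stayed between 0.415 and 2.33 CPM in every library. The Magel2 common region, chr7:62382035-62383075, lies past the end of the gene. At the Magel2 start itself the values were 4.52 CPM in old replicate 2 and 1.20 CPM in young. Mkrn3 has 1 region, chr7:62419695-62420630, and its values are those of the gene.

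**Figure D3:**
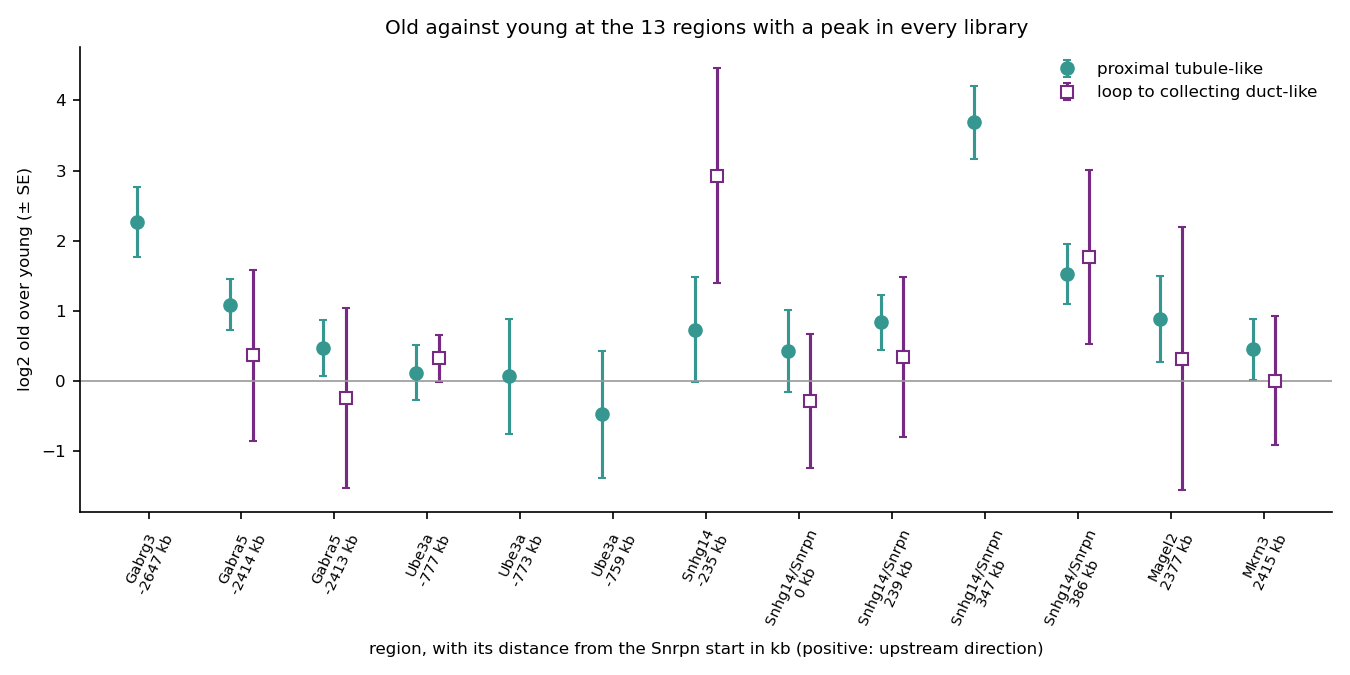
Log2 difference of old over young (vertical axis, bars are SE) in the 13 common regions, ordered along the chromosome with the distance from the Snrpn start in kb, in proximal tubule-like cells (circles) and, where a region was tested, loop to collecting duct-like cells (squares). Among the circles the region at 347 kb stands highest at 3.69, and the Ube3a start region lies at 0.12.

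Old replicate 2 and the young library have nearly the same proximal tubule share, and between them more regions can be compared. Of 33 member regions with a peak in both, 30 (90.9%) had a higher CPM in old replicate 2, with a median log2 ratio of 0.97, while over 117298 regions 60.9% were higher, with a median of 0.11. By gene these were 8 of 8 for Gabrg3, 7 of 7 for Gabra5, 9 of 10 for Snhg14, 6 of 7 for Snrpn, 3 of 3 for Magel2, 1 of 1 for Mkrn3 and 2 of 4 for Ube3a. Regions of Snrpn and Snhg14 are counted once in the total. These values come from 1 library a group and from the contrast that chose the genes.

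The genes of the neighbourhood and of the imprinting machinery were read in the same proximal tubule contrast, from lists drawn up with earlier results of these data known, so that a call in them is no independent support. Over all 25550 genes tested, 0.748% were called at an adjusted p under 0.05 (0.544% higher, 0.204% lower). None of 14 neighbours was called (median log2 0.10, all genes 0.0032), from Tubgcp5 and Mtmr10 at -0.03 to Otud7a at 0.50 and Trpm1 at 0.59, and 0 had an unadjusted p under 0.05. Among 27 other imprinted genes with a test (30 listed), 2 fell and none rose. They were Peg3, a paternally expressed zinc finger gene (log2 -0.79, SE 0.18, adjusted p 0.00443), and its neighbour Usp29 (log2 -0.68, SE 0.18, adjusted p 0.0379). Their median was 0.01, and Nap1l5 (1.05) and Mirg (1.65), which had the highest values, did not pass. None of 8 neuronal markers was called (10 listed, 0 with an unadjusted p under 0.05), from Snap25 at -0.61 to Nefm at 0.39. Of 12 regulators of imprinted domains, 1 rose: Eed, a subunit of a Polycomb complex that methylates histones (log2 1.05, SE 0.25, adjusted p 0.00513). These adjusted p-values are from edgeR's quasi-likelihood test, and DESeq2 called none of the 3 (adjusted p 0.0620 for Eed, 0.395 for Peg3 and 0.473 for Usp29). Of 13 alternatives with a test, the call was lost in 4 for Eed, 7 for Peg3 and 9 for Usp29. Without old replicate 2 the values of Peg3 and Usp29 were -0.45 and -0.41.

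In the loop to collecting duct-like class the age contrast played no part in choosing the genes, and none of the 6 tested genes was called, in a fit where 0.144% of 22983 genes were. There were 53, 322 and 192 cells. Snrpn measured 22.1 and 21.9 CPM in the old libraries and 15.3 in the young one, with a log2 difference of 0.51 (SE 0.57). Snhg14 differed by 0.87 (SE 0.51), Gabra5 by 0.10 (SE 0.82), Ube3a by 0.30 (SE 0.31), Magel2 by 0.45 (SE 1.44) and Mkrn3 by 0.09 (SE 1.18), with an adjusted p of 0.999 for each, none with an unadjusted p under 0.05 and none called by DESeq2. The Snrpn difference here lay within 2 SE of 0 and also of 1.42, the value seen in proximal tubule-like cells. Whether it is smaller in the loop class cannot be told from so few counts. The start region measured 8.14, 5.98 and 8.13 CPM, and the region at 347 kb had 0, 2 and 0 counts.

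The endothelium-like class (167, 89 and 40 cells) allowed a test for Ube3a only, which differed by 0.32 (SE 0.35, adjusted p 0.827, edgeR's quasi-likelihood test), where 0.307% of 17566 genes were called. Ube3a was neither called at an unadjusted p under 0.05 nor by DESeq2. Macrophage or dendritic-like cells could be set side by side in old replicate 1 and the young library, with no test. Snrpn measured 0.413 CPM in old replicate 1 (95% interval 0.198 to 0.760, 16 counts) and 6.37 CPM in the young library (2.07 to 14.9, 9 counts). Snhg14, which shares its regions, measured 0.930 CPM (0.568 to 1.44) and 7.78 CPM (2.86 to 16.9). Gabra5 measured 0.439 CPM (0.201 to 0.833) and 1.41 CPM (0.0358 to 7.88), and Mkrn3 1.86 CPM (1.30 to 2.57) and 2.83 CPM (0.343 to 10.2). How such intervals fall over all genes was not computed. The proximal tubule markers summed to 193 and 214 CPM in the same cells. Proximal tubule-like cells made up 4.91% and 83.6% of these libraries, and the part of this in the Snrpn values was not tested. Ube3a measured 114 and 111 CPM there. In T or NK-like cells Snrpn measured 4.32 CPM (2.74 to 6.49) and 4.66 CPM (0.118 to 25.9), the latter from 2 counts. Intervals cover counting error only.

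Between cell classes, the genes differed in where their mean was highest. Snrpn, Snhg14, Gabra5, Gabrg3 and Magel2 had their highest mean in proximal tubule-like cells, and Ube3a in T or NK-like cells. Proximal tubule values entered the choice of the genes, so this order is not independent of it. Young Gabrg3 did not follow it, with 2.34 CPM in proximal tubule-like cells. It measured 4.36 CPM in endothelium-like and 4.66 CPM in T or NK-like cells of that library, from 2 counts each. For Magel2 the order rests on 0 counts in 53 loop cells of old replicate 1, since the loop class was level or higher in old replicate 2 (6.31 against 5.66 CPM) and young (2.87 against 2.83 CPM). Mkrn3 was highest in endothelium-like cells (mean 10.1 CPM), within its proximal tubule range (7.01 to 11.4). Mean Snrpn over libraries was 36.2 CPM in proximal tubule-like (17.2 to 52.4), 19.8 in loop to collecting duct-like (15.3 to 22.1), 4.49 in T or NK-like, 3.39 in macrophage or dendritic-like and 2.98 in endothelium-like cells. The proximal and loop ranges overlapped, as did those of the last 3. Means cover 3 libraries, but 2 (old replicate 1 and young) in T or NK-like and macrophage or dendritic-like cells. Neutrophil-like values are from 1 library, old replicate 1. Mean Ube3a was 145 CPM in T or NK-like, 113 in macrophage or dendritic-like, 95.9 in endothelium-like (82.8 to 117), 71.4 in loop to collecting duct-like (61.2 to 80.3), 65.6 in proximal tubule-like (61.3 to 73.7) and 46.5 in neutrophil-like cells. The ranges of the proximal and loop classes overlapped, and that of the endothelium-like class lay just above both. In the neutrophil-like cells of old replicate 1 (167 cells) the other 6 genes with a common region had 0 counts, which allows up to 5.82 CPM each (exact 95% limit on fragments). In per-length terms (CPM per kb of common region) proximal tubule-like cells of the young library had 22.0 for Ube3a, 9.74 for Gabra5, 7.49 for Mkrn3 and 4.55 for Snrpn.

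Against proximal tubule-like cells, with library as a block, 1 of 7 genes was lower in the loop to collecting duct-like class and none higher (18.7% of 24999 genes called, 11.7% lower and 7.07% higher). This was Gabrg3 (log2 -4.77, SE 1.31, adjusted p 0.0124), with 0, 0.664 and 0 CPM in the loop class. Snrpn had a log2 difference of -0.94 (SE 0.52, adjusted p 0.254) and was not called. Among 12 regions tested, 3 were lower, where 14.6% of all regions were. They were the Snrpn region at 347 kb (log2 -5.00, adjusted p 0.0021), the Gabrg3 region chr7:57357698-57358645 (-4.85, adjusted p 0.00167) and the Gabra5 region chr7:57590461-57591500 (-1.81, adjusted p 0.0344). The Snrpn start region differed by 0.57 in the other direction (adjusted p 0.787). All these adjusted p-values are from edgeR's quasi-likelihood test. Without old replicate 2, which holds most loop cells, the calls of the gene Gabrg3 (adjusted p 0.111), of the 347 kb region (0.0945) and of the Gabra5 region (0.429) were lost. The Gabrg3 region is the only common region of its gene, so both calls rest on the same counts. The region call was kept in each of 5 alternatives (adjusted p 0.0210 without old replicate 2, same test). The proximal tubule-like baseline of this and the following class contrasts also entered the choice of the genes. Their p-values are therefore not independent of that choice. In the young library Gabrg3 measured 2.34 CPM in proximal tubule-like cells and 0 in the loop class (upper limit 3.53 CPM). Young Snrpn measured 17.2 and 15.3 CPM (loop interval 8.92 to 24.5), and young Gabra5 19.2 and 10.5 CPM (5.25 to 18.8).

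The endothelium-like class was lower in 3 of 7 genes and higher in 1 (41.3% of genes called, 25.3% lower and 16.0% higher). The log2 difference was -4.12 for Gabra5 (SE 0.88, adjusted p 0.000817), -3.17 for Snhg14 (SE 0.65, adjusted p 0.000527) and -3.92 for Snrpn (SE 0.77, adjusted p 0.000393). Gabra5 had 0 counts there in both old libraries. Ube3a was higher by 0.41 (SE 0.16, adjusted p 0.0443), a call that 11 of 16 alternatives lost, with RLE scaling (0.104) and without each old library in turn (0.376 and 0.164) among them. Mkrn3, at 10.1, 11.6 and 8.71 CPM in endothelium-like cells, differed by 0.12, which was not called. In macrophage or dendritic-like cells 5 genes were lower and Ube3a higher (54.3% of genes called, 30.8% lower and 23.4% higher). The log2 difference there was -4.77 for Snrpn (adjusted p 0.000107), -5.95 for Gabra5 (adjusted p 2.56e-05) and -1.84 for Mkrn3 (adjusted p 0.0428), and Ube3a was higher by 0.61 (SE 0.16, adjusted p 0.0035). The Mkrn3 call was lost whichever library was left out (adjusted p 0.0595 to 0.188), and that of Ube3a in 5 of 16 alternatives, RLE scaling among them (adjusted p 0.0682). All are from edgeR's quasi-likelihood test, where the median over all genes was -0.12 on the log2 scale in the endothelium-like contrast.

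In T or NK-like cells 6 genes were lower and Ube3a higher, where 57.7% of genes were called, 34.3% lower and 23.4% higher, and the median log2 over all genes was -0.24. The log2 difference was -2.88 for Snrpn (adjusted p 0.00252), -4.18 for Magel2 (adjusted p 0.0157), -2.62 for Mkrn3 (adjusted p 0.0151) and -3.65 for Gabrg3 (adjusted p 0.0426). Without old replicate 1, which holds most T or NK-like cells, these calls were lost (adjusted p 0.0523, 0.341, 0.0979 and 0.828), and the Gabrg3 difference was 0.52 in the other direction. Ube3a was higher by 0.88 (SE 0.17, adjusted p 0.000207, edgeR's quasi-likelihood test) and stayed called in each of 16 alternatives. The Snrpn region at 347 kb had 0 counts in T or NK-like cells of 2 libraries and in endothelium-like cells of 3. The exact 95% upper limit on fragments was 0.709 CPM in T or NK-like cells of old replicate 1, where proximal tubule-like cells measured 10.6 CPM. In the young T or NK-like cells it was 17.2 CPM, and in the endothelium-like cells 4.15, 10.7 and 16.1 CPM, so these limits are wide. The other imprinted genes (26 tested in loop) were called in both directions, 4 higher and 5 lower in the loop class and 5 higher and 13 lower in T or NK-like cells.

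Within the proximal tubule-like class, clusters led by Slc5a2, the glucose transporter of the early proximal tubule, were set against the other clusters, a comparison chosen after the values had been seen. Gabra5 measured 45.5, 43.6 and 32.2 CPM in Slc5a2-led clusters (old replicate 1, old replicate 2, young) and 33.1, 32.8 and 13.1 in the others. Snrpn measured 63.1, 59.5 and 20.5 CPM against 37.3, 48.4 and 15.7, and Snhg14 73.6, 67.6 and 24.2 against 37.7, 52.3 and 17.0. The Slc5a2-led value was the higher of the pair in all 3 libraries for these genes and for Magel2 (7.01, 7.36 and 4.65 against 4.85, 4.70 and 1.97 CPM). With library as a block, 4 of 7 genes were higher (7.95% of 25523 genes higher, 12.2% called): Gabra5 by 0.88 (SE 0.15, adjusted p 0.000428), Snhg14 by 0.52 (SE 0.11, adjusted p 0.00303), Snrpn by 0.41 (SE 0.11, adjusted p 0.0197) and Magel2 by 0.96 (SE 0.31, adjusted p 0.0429). These are from edgeR's quasi-likelihood test, while DESeq2 called none, and none was called without the block, without old replicate 2 or without the young library. The same proximal tubule-like counts entered the choice of the genes. The p-values of this comparison, for genes and for regions, are therefore not independent of that choice. Old replicate 1 had 55 cells in these clusters, where its values rest on 18 counts for Snrpn, 21 for Snhg14, 13 for Gabra5 and 2 for Magel2.

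**Figure D4:**
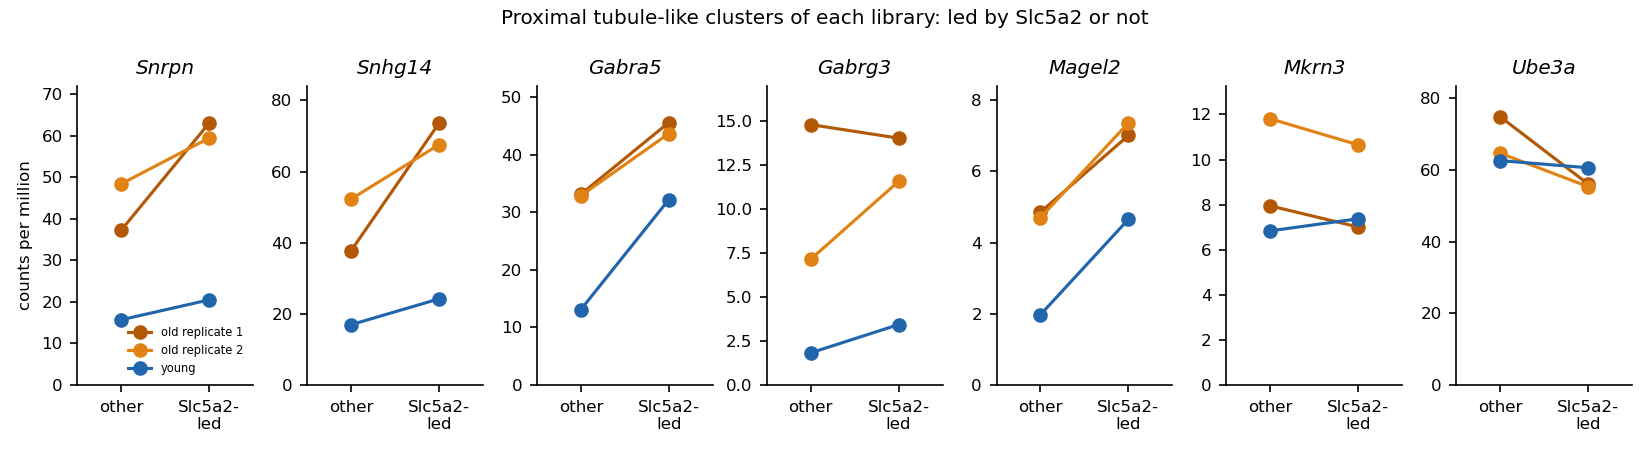
CPM of the genes in Slc5a2-led and other proximal tubule-like clusters (horizontal axis), one line per library. Clusters of each kind are pooled. For Gabra5 and Snrpn the Slc5a2-led value is the higher one in all 3 libraries, and in both pools the young library lies lowest.

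The Snrpn region at 347 kb followed the same division. It measured 21.0, 20.8 and 2.09 CPM in Slc5a2-led clusters and 9.93, 11.6 and 0.447 CPM in the others, a log2 difference of 1.08 (SE 0.28, adjusted p 0.00796, edgeR's quasi-likelihood test). The young library was below both old ones in each kind of cluster. The largest clusters are mostly of one age: cluster 0 had 2011 young cells and 1 old, and cluster 6 had 7 and 766 cells of the old libraries and none of the young one. The 4 clusters with at least 10 cells of every library (7, 10, 11 and 13) held 115, 1280 and 300 cells. Cluster 7, led by Slc5a2, held 132109, 3720582 and 687576 of their 1491128, 13946343 and 4086000 counts. Young Gabrg3 had 5 counts in cluster 13 and 0 in clusters 7, 10 and 11, and young Snrpn had 6 counts in cluster 10. The part of this unlike mix in the differences was not tested. In these 4 clusters, pooled, the log2 difference of old over young was 1.40 (SE 0.42) for Snrpn and 2.61 (SE 1.11) for Gabrg3. For Snhg14 it was 0.94 (SE 0.37), for Gabra5 0.56 (SE 0.43), for Magel2 0.073 (SE 0.84), for Mkrn3 0.092 (SE 0.65) and for Ube3a 0.060 (SE 0.31). The Magel2, Mkrn3, Gabra5 and Ube3a differences there were smaller than those over all proximal tubule-like cells by more than 1.5 times. There the region at 347 kb was at 3.17 (SE 0.96), and chr7:59769547-59770406 of Snhg14 was at -0.58 (SE 0.70), against 0.73 over all cells of the class. The 2 other regions higher in Slc5a2-led clusters were chr7:57591934-57592866 of Gabra5 (log2 0.83, adjusted p 0.0136) and chr7:59769547-59770406 of Snhg14 (log2 1.32, adjusted p 0.0205), where 3.45% of all regions were higher in edgeR's quasi-likelihood test. All 3 region calls were lost without the block, without old replicate 2 and without the young library.

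Likeness to Snrpn was taken as Pearson's r of log2(CPM + 5) across the 14 library by class sums with at least 30 cells. Outside the domain, 15432 genes with a mean of at least 20 CPM were ranked. The most alike were Kif6 (0.952), Adgrb3 (0.946), Nxph1 (0.941), Mettl7a3 (0.937) and Epb41l5 (0.937). Of the members compared with Snrpn below, only Ube3a reached that mean. Among the genes described here r with Snrpn was 0.990 for Snhg14, which shares its regions, 0.912 for Gabra5, 0.767 for Magel2, 0.548 for Gabrg3, 0.351 for Mkrn3 and -0.405 for Ube3a. For the neighbours Peg12 and Atp10a it was 0.045 and -0.745. The sums share libraries and classes, and these values are a description.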

How the data were processed

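Open chromatin was measured per cell in 3 libraries. Per the submitters' processing notes, reads were processed by the authors with Cell Ranger ATAC 2.1.0 (mm10). The deposited tables give, for each barcode and peak, a raw count of transposase cuts. Each library has peaks of its own, and the counts are not normalized. Most counts were even (94.3%, 90.9% and 89.5%), so intervals (exact 95%, counts; Wilson, shares) used fragments, the count over 2 rounded up.

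Peaks that overlapped by at least 1 bp were merged, and regions with a peak in every library were called common. Barcodes with at least 1000 counts were kept, and the highest doublet scores were removed at 0.8% per 1000 barcodes. For clustering, common regions detected in 1% or more of cells, without chromosome 7 from 55 to 65 Mb, were reduced to 30 components and grouped (20 neighbours, Leiden resolution 1, seed 7). Clusters took a class from marker lists, at least 3 raised markers and a margin of 0.25 over the next list. This naming rule was changed once after the clusters had been seen, to use all merged regions and folds over the median cluster. For thinned shares, 264, 258 and 288 cells below 2000 counts were left out.

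Counts were summed per library and class with at least 30 cells and tested with edgeR 4.0.16 (quasi-likelihood, TMM, filterByExpr, Benjamini-Hochberg over all genes or regions, threshold 0.05), and with DESeq2 1.42.0 as an alternative, in R 4.3.3, with Python 3.11.15, igraph 0.11.9 and leidenalg 0.10.2. The pipeline was tested on simulated data. Age contrasts set 2 old against 1 young library. Class contrasts had the library as a block, since classes of one library come from the same sample. All 8 members were named, with regions at starts and the 3 other regions of highest mean per gene, the 5 genes most like Snrpn, and from each list the 2 highest, the 2 lowest and those that passed. Further regions, among them those called in some libraries only, were named after their values were seen. List genes that share a common region with a member are not reported here. Members and lists were chosen with earlier results of these data known. Alternatives changed the normalization, test, filters, regions, depth, clustering or libraries used. Gene positions and promoters are from RefSeq, GRCm38.p6, the assembly that mm10 is built from, and all 8 genes matched by symbol.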

Additional observations from a re-analysis of the deposited data

How the results depend on the processing

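The Snrpn difference between old and young proximal tubule-like cells (log2 1.42) lay between 1.14 and 1.61 when either old library was left out, and fell to 0.48 when only 2 kb on each side of annotated starts was counted. Restriction to peaks detected in 2% or more of barcodes left Snrpn without a value. In loop to collecting duct-like cells no gene was called with age under any alternative run, and the same held for Ube3a in endothelium-like cells.

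Against proximal tubule-like cells, the count of genes called in the loop class (1) was 0 with all merged regions, 0 with these peaks, 0 with 2 kb around starts, 3 with fragments and 2 with at least 3000 counts per barcode, and ranged from 0 to 3 with one library left out (0 without old replicate 2). In endothelium-like cells (4) it was 0 with the 2% peaks and 0 around starts, and 3 to 5 with one library left out. In macrophage or dendritic-like cells (6) it was 0 with the 2% peaks, 2 around starts and 3 after thinning, and 4 to 6 with one library left out. In T or NK-like cells (7) it was 1 with the 2% peaks, 3 around starts and 4 after thinning, and 3 to 7 with one library left out (3 without old replicate 1). The last alternatives test fewer genes: 1 with the 2% peaks, 3 around starts and 4 after thinning. The Slc5a2-led count (4) was 0 with DESeq2, and 0 to 5 with one library left out.

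No paired analysis was possible for age because the single young library has no counterpart to pair with each old one. Where the library is a block between classes, the fit without the block called 1 gene in the loop class, 4 in the endothelium-like, 7 in the macrophage or dendritic-like and 7 in the T or NK-like class, and 0 in the Slc5a2-led comparison.

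Some single-gene differences changed sign. With age in the loop class, Gabra5 was at -0.43 with all merged regions, -0.18 with at least 3000 counts, -0.018 at Leiden resolution 2 and -0.42 to 0.62 with an old library left out, Snrpn at -0.27 around starts, Magel2 at -0.35 with all merged regions, and Mkrn3 at -0.14 with DESeq2 and -0.065 with all merged regions. Between classes, Ube3a in the loop class was at -0.054 with all merged regions, -0.012 with the 2% peaks, -0.050 around starts and -0.059 to 0.093 with one library left out, and Snrpn in the loop class at 0.45 around starts. Ube3a in endothelium-like cells was at -0.024 after thinning, and Mkrn3 there at -0.11 around starts and -0.10 to 0.22 with one library left out. Gabrg3 in T or NK-like cells ranged from -5.35 to 0.52 with one library left out, and Mkrn3 in Slc5a2-led clusters from -0.11 to 0.073. The cause of these changes was not tested. Of the members' results outside the proximal tubule age contrast, 423 kept their direction and side of the threshold, 15 passed it, 46 no longer did and 19 changed sign. Among these, age fits without an old library had no test and were sorted by direction alone. With doublets kept, no cluster took the loop name, so that class had no value. Old replicate 1 limits proximal tubule values to 261 cells, and the young group to 1 library.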
